A study of Mus musculus with 12 samples.

Results

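Genes of the immediate early class outside the AP-1 family were followed across mouse livers with and without the HGF receptor Met in hepatocytes, and with and without injected HGF. They were chosen by name, with earlier results of these data known. The members are Egr1, Egr2, Egr3, Nr4a1, Myc, Csrnp1, Ier2, Ier3, Ier5 and Zfp36, and make up 10 of the 15780 genes that the array names. Each had 1 probe set, the group of short probes that reports on a transcript. There were 12 arrays of 12 animals, 3 in each of 4 groups. The first group was hepatocyte Met knockout mice given 2 µg recombinant mouse HGF by intraperitoneal injection and sampled 2 h later, and the second was knockout mice without HGF. The third was control mice with the same HGF dose and time, and the fourth was control mice without HGF. Every control carried loxP-flanked Met alleles (c-MetloxP/loxP) and no Cre is named for them. The knockouts had the same alleles crossed to either Alfp-Cre, driven by promoter and enhancer elements of the albumin and AFP genes during embryonic life, or Alb-Cre, driven by the albumin promoter after birth. Which Cre line each knockout array represents, and the strain, sex and age of the mice, are not given in the labels. The protocol names both HGF and NaCl injections, but the labels do not state whether the animals without HGF received NaCl. If they did not, HGF and the handling for injection cannot be told apart.

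Immediate early genes are transcribed within minutes of a stimulus, without new protein synthesis, when growth factor receptors such as Met switch on the ERK cascade and transcription factors already in the nucleus. Serum response factor at CArG boxes, CREB at cyclic AMP response elements and NF-kappaB at its own sites are the best known of these factors. Many of the transcripts decay quickly, so a single sampling time shows a state between induction and shut-off. In liver they are known for their rise in regeneration, in inflammation and after handling of the tissue.

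RefSeq promoter sequences of build GRCm38.p6 were matched to the members by symbol, leaving out windows on the chromosome that carries Egr1. Of the 10 members, 6 then had at least 1 window of 250 bases before an annotated transcript start. Egr1 was therefore not searched, and no window was found for Egr3, Ier2 and Myc. The 4 printed here belong to genes whose values carry the comparisons below, and for Csrnp1 the most upstream of its 4 starts is shown. All are written 5′ to 3′ on the gene's strand, with motif matches in capitals. The windows are chr17:35821463-35821712 on the plus strand for Ier3, chr7:28379229-28379478 on the minus strand for Zfp36, chr9:119984743-119984992 on the minus strand for Csrnp1 and chr1:155099637-155099886 on the minus strand for Ier5.
Ier3: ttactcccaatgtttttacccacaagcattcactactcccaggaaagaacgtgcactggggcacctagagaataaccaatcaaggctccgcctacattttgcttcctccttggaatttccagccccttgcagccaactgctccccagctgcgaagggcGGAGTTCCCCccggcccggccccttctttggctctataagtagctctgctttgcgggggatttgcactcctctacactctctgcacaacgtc
Zfp36: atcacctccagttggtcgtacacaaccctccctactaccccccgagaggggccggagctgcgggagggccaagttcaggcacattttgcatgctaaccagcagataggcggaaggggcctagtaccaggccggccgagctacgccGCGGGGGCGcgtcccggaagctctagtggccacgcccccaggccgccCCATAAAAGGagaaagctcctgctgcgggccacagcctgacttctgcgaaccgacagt
Csrnp1: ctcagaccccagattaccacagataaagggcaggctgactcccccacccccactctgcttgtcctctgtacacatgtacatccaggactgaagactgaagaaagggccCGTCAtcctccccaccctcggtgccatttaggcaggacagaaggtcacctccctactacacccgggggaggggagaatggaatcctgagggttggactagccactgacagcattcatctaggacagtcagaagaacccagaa
Ier5: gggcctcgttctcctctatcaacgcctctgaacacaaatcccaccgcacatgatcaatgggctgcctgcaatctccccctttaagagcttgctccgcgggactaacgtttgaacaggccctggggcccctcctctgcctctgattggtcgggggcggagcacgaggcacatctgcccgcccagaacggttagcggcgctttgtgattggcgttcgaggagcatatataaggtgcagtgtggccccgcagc
The motifs searched on both strands were the CArG box and the NF-kappaB site, given by name, the cyclic AMP response element TGACGTCA and its core TGACG, the AP-1 site TGANTCA, the EGR site GCGNGGGCG and TATAAA. The core TGACG is contained in the full element TGACGTCA. The Ier3 window held an NF-kappaB match 92 to 83 bases before the start, a motif found in 3.9% of 32851 windows of that length. The Zfp36 window held a CArG box 58 to 49 bases before the start and an EGR site 105 to 97 bases before it. These motifs occurred in 1.47% and 4.7% of all windows. The Csrnp1 window held the core TGACG on the opposite strand, a motif present in 17.8% of windows. Another start of Csrnp1, at the end of chr9:119983024-119983273, had 2 matches to the AP-1 site, which 6.75% of windows contain. The Ier5 window held none of the letters searched. Of the windows not printed, 4 of 5 for Egr2 held a CArG box, though several of these windows overlap and share the same box. The Nr4a1 window held 4 cores TGACG and an EGR site. A match is a description of letters and not a measured binding site.

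Values are log2(intensity + 1) of the deposited GCRMA intensities, and a difference of 1 is a doubling on that scale. A gene was tested where its value reached 4 on at least 3 of the 12 arrays, which 7 members did: Egr1, Myc, Csrnp1, Ier2, Ier3, Ier5 and Zfp36. Myc reached 4 on 3 arrays, Ier5 on 5 and Ier3 on 6, so these passed through the arrays on which they were high. With Csrnp1, they made 4 tested members that were below 4 on all 3 controls without HGF, so their separation from that group is partly set by the filter. Egr2, Egr3 and Nr4a1 stayed below 4 on every array. Differences were tested with limma over 6683 probe sets, and the calls below are those with a p under 0.05 after Benjamini-Hochberg adjustment, given as adjusted p. Array numbers ran from 1 to 6 for controls and 7 to 12 for knockouts, so genotype and array order cannot be told apart. In bulk liver, fewer cells of a type and less RNA per cell cannot be told apart either. The hepatocyte markers had summed intensities of 93400 to 97200 in knockouts with HGF, 92000 to 94700 in knockouts without, 94400 to 97700 in controls with HGF and 96700 to 99900 in controls without. None of the 5 cholangiocyte and none of the 6 lymphocyte markers on the array passed the filter.

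Knockout array 2 without HGF stood apart from the others of its label, and array 2 with HGF did so by a second count. Of the 7 tested members, 5 reached or passed the lowest HGF-treated control on knockout array 2 without HGF, against 1 on each of the other 2 knockout arrays without HGF. On knockout array 2 with HGF, 4 of the 7 were at or below the highest control without HGF, against 0 on array 1 and 1 on array 3. By the first count array 3 with HGF stood apart instead. There 5 of the 7 reached or passed the lowest HGF-treated control, against 1 each on arrays 1 and 2 with HGF. The first count includes Ier2 on every knockout array, since its lowest HGF-treated control, at 5.54, lay below all of them. The Met probe set gave no check of the labels, since where its probes lie relative to the deleted exon is unknown here. It read 6.61, 7.40 and 6.29 in knockouts with HGF, 7.06, 6.68 and 7.18 in knockouts without, 6.59, 6.78 and 7.02 in controls with HGF and 6.62, 6.84 and 6.77 in controls without. These ranges overlapped. Differences and list medians that use the knockouts are therefore given with and without this pair of arrays, a choice made after their values were seen.

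In control livers 2 h after HGF, all 7 tested members averaged higher than in controls without HGF, and Csrnp1 alone passed the test. This was 1 of 7 tested members, where 0.404% of all tested probe sets were called. The median difference of the 7 was 1.82, beside -0.09 over all tested probe sets. The 3 HGF-treated controls all lay above the 3 controls without HGF for 6 of the 7, the exception being Ier2. The same separation held for 14.1% of tested probe sets. Under the main fit 6 of the 7 had an unadjusted p under 0.05. The shared spread of that fit includes the knockout arrays. Fitted on the 2 control groups alone, 5 members were called, where 12% of probe sets were. With all groups but without both knockout arrays numbered 2, 6 were called, where 8.16% of probe sets were.

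**Figure D1:**
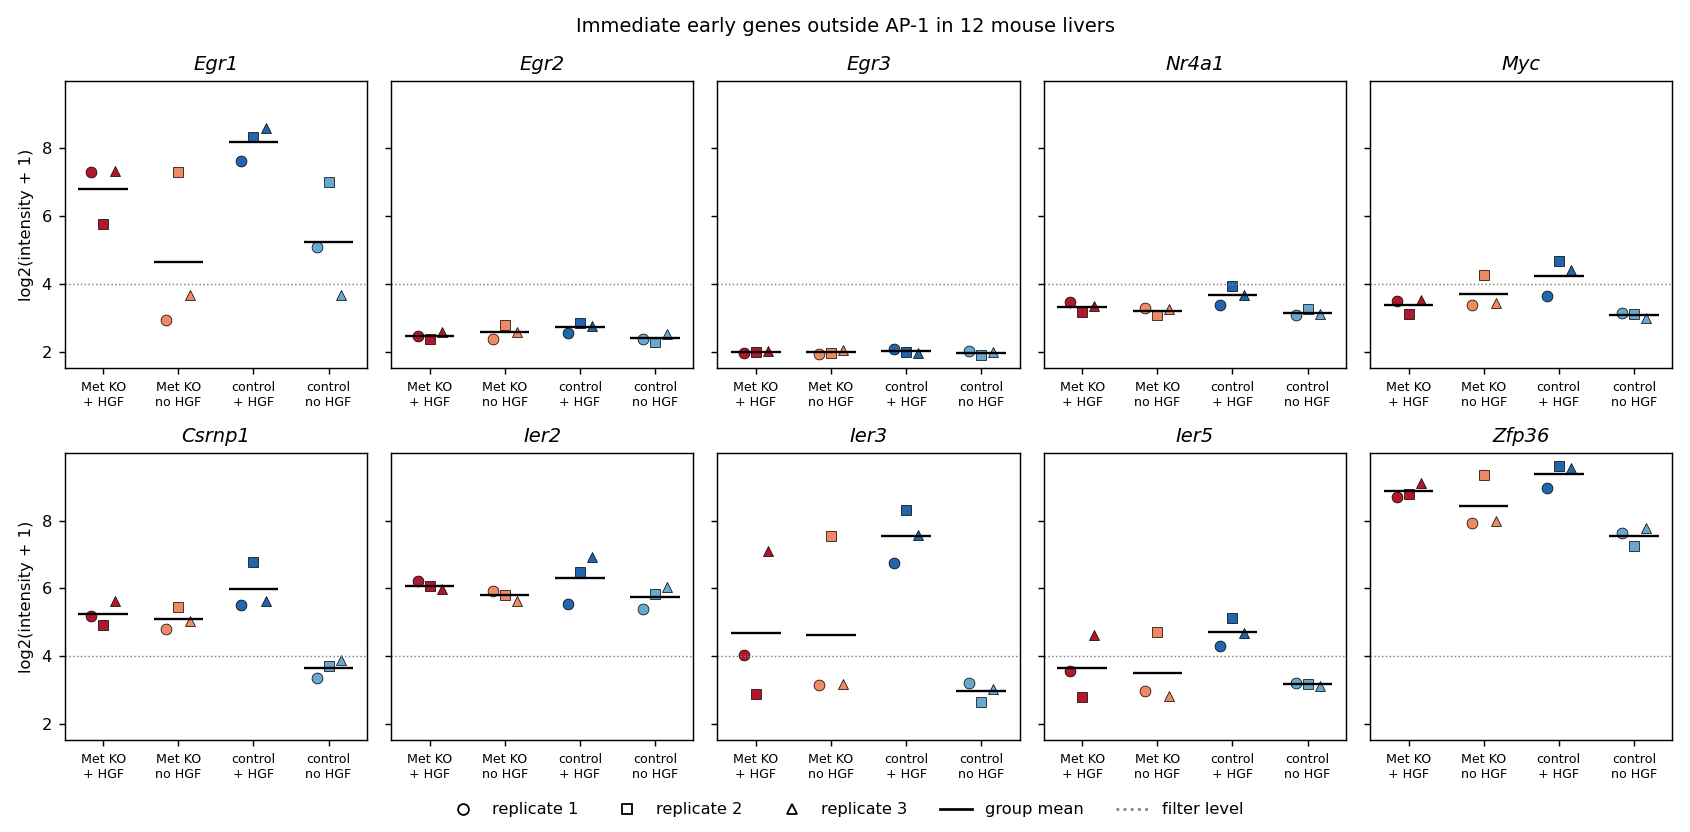
log2(intensity + 1) of the 10 genes on every array, one panel per gene, with points for arrays, bars for group means and the filter level of 4 marked. Knockout livers stand left of controls, and livers with HGF left of those without; the knockout array numbered 2 without HGF sits with the HGF-treated controls for Ier3, Ier5, Myc and Zfp36.

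The Egr genes and Nr4a1 encode transcription factors, the Egr proteins with zinc fingers that bind GC-rich sites and Nr4a1 an orphan nuclear receptor. Egr1 read 7.32, 5.77 and 7.34 in knockouts with HGF and 2.95, 7.32 and 3.70 in knockouts without. It read 7.63, 8.35 and 8.59 in controls with HGF and 5.09, 7.0 and 3.68 in controls without. The HGF-treated controls were the 3 highest arrays of all 12, while both groups without HGF were widely spread and overlapped. The difference between controls with and without HGF was 2.93 (SE 1.10, adjusted p = 0.183), and it was called without both knockout arrays numbered 2 (adjusted p = 0.0371) but not in the 2 control groups alone (adjusted p = 0.0588). Knockouts with HGF averaged 6.81 ± 0.90 and knockouts without 4.66 ± 2.34, against 8.19 ± 0.50 in controls with HGF and 5.26 ± 1.67 in controls without (SD, n = 3 each). Egr1 was the tested member whose knockout livers without HGF had the lowest mean of the 4 groups.

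Egr2, best known from hindbrain and Schwann cell development, read 2.48, 2.39 and 2.61 in knockouts with HGF and 2.39, 2.79 and 2.59 in knockouts without. It read 2.56, 2.85 and 2.78 in controls with HGF and 2.40, 2.29 and 2.55 in controls without. Egr3, best known from muscle spindle development, ranged from 1.91 to 2.10 over all arrays. Nr4a1 read 3.47, 3.20 and 3.35 in knockouts with HGF and 3.29, 3.11 and 3.28 in knockouts without. It read 3.38, 3.95 and 3.70 in controls with HGF and 3.09, 3.27 and 3.14 in controls without. Its HGF-treated controls lay above the other controls on all 3 arrays, but every value was below the filter. With no filter, the differences in controls were 0.31 for Egr2 (adjusted p = 0.284), 0.04 for Egr3 (adjusted p = 0.846) and 0.51 for Nr4a1 (adjusted p = 0.151). Near background, GCRMA values change little with the amount of RNA, so these 3 genes were not measured well enough to show a difference or its absence.

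Myc encodes a transcription factor that drives growth and ribosome production. It read 3.52, 3.14 and 3.54 in knockouts with HGF and 3.40, 4.26 and 3.46 in knockouts without. It read 3.65, 4.68 and 4.41 in controls with HGF and 3.15, 3.14 and 3.01 in controls without. The HGF-treated controls lay above every other array but knockout array 2 without HGF, which exceeded the lowest of them. The difference between controls with and without HGF was 1.14 (SE 0.28, adjusted p = 0.0936), and it was called in the 2 control groups alone (adjusted p = 0.0342) and without both knockout arrays numbered 2 (adjusted p = 0.0186). Knockouts with HGF averaged 3.40 ± 0.23 and knockouts without 3.71 ± 0.48, against 4.25 ± 0.53 in controls with HGF and 3.10 ± 0.08 in controls without (SD, n = 3).

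Csrnp1 encodes a cysteine- and serine-rich nuclear protein known as a target of AXIN1 in human cells. It read 5.20, 4.92 and 5.63 in knockouts with HGF and 4.80, 5.45 and 5.05 in knockouts without. It read 5.50, 6.78 and 5.63 in controls with HGF and 3.37, 3.72 and 3.90 in controls without. The 3 controls without HGF were the 3 lowest arrays of all 12, below both knockout groups. Csrnp1 rose in controls by 2.31 (SE 0.33, 4.95-fold, adjusted p = 0.0338). The call was lost when any 1 of the 6 control arrays was left out. The adjusted p was 0.0674, 0.116 and 0.083 without HGF-treated control 1, 2 and 3, and 0.153, 0.134 and 0.154 without control 1, 2 and 3 of those without HGF. Without HGF-treated control 2, the highest array, the difference was 1.90. In the 2 control groups alone the adjusted p was 0.0084, and without both knockout arrays numbered 2 it was 0.00526.

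Ier2, Ier3 and Ier5 share a name for their fast induction, not a protein family as a whole. Ier2 encodes a small nuclear protein. It read 6.22, 6.07 and 5.97 in knockouts with HGF and 5.93, 5.82 and 5.64 in knockouts without. It read 5.54, 6.47 and 6.92 in controls with HGF and 5.39, 5.84 and 6.03 in controls without. The control groups overlapped, and HGF-treated control 1 was lower than 2 of the 3 controls without HGF. The difference in controls was 0.56 (SE 0.30, adjusted p = 0.328). It was the only tested member not called in either of the other fits, with an adjusted p of 0.353 in the 2 control groups alone and 0.315 without both knockout arrays numbered 2.

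Ier3 encodes a stress-induced protein that influences cell survival and ERK signalling. It read 4.04, 2.90 and 7.11 in knockouts with HGF and 3.15, 7.55 and 3.18 in knockouts without. It read 6.74, 8.31 and 7.57 in controls with HGF and 3.23, 2.65 and 3.04 in controls without. The values formed a high set, made of the HGF-treated controls, knockout array 3 with HGF and knockout array 2 without HGF, and a low set of the other 7 arrays. The difference in controls was 4.57 (SE 1.24, 23.7-fold, adjusted p = 0.106). It was called in the 2 control groups alone (adjusted p = 0.000802) and without both knockout arrays numbered 2 (adjusted p = 0.0072). Ier3 had the largest difference of the 7 members and also the largest standard deviations in the knockout groups, 2.18 with HGF and 2.53 without, against 0.78 in controls with HGF and 0.29 in controls without (n = 3 each).

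Ier5 encodes a nuclear protein that works with the phosphatase PP2A and heat shock factor 1 in human cells. It read 3.56, 2.79 and 4.63 in knockouts with HGF and 2.97, 4.73 and 2.82 in knockouts without. It read 4.31, 5.12 and 4.70 in controls with HGF and 3.23, 3.19 and 3.12 in controls without. The same 5 arrays were high as for Ier3. The difference in controls was 1.53 (SE 0.53, adjusted p = 0.16), and it was called in the 2 control groups alone (adjusted p = 0.00483) and without both knockout arrays numbered 2 (adjusted p = 0.0141).

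Zfp36 encodes tristetraprolin, which binds AU-rich elements of messenger RNAs and speeds their decay. It read 8.70, 8.78 and 9.11 in knockouts with HGF and 7.93, 9.35 and 7.99 in knockouts without. It read 8.96, 9.60 and 9.56 in controls with HGF and 7.62, 7.26 and 7.79 in controls without. All 9 other arrays lay above the 3 controls without HGF, and the knockouts without HGF were near them except array 2. The difference in controls was 1.82 (SE 0.35, 3.52-fold, adjusted p = 0.0572). It was called in the 2 control groups alone (adjusted p = 0.00351), without both knockout arrays numbered 2 (adjusted p = 0.00303), without knockout array 2 of those without HGF (adjusted p = 0.0129) and without knockout array 3 of those with HGF (adjusted p = 0.0481).

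**Figure D2:**
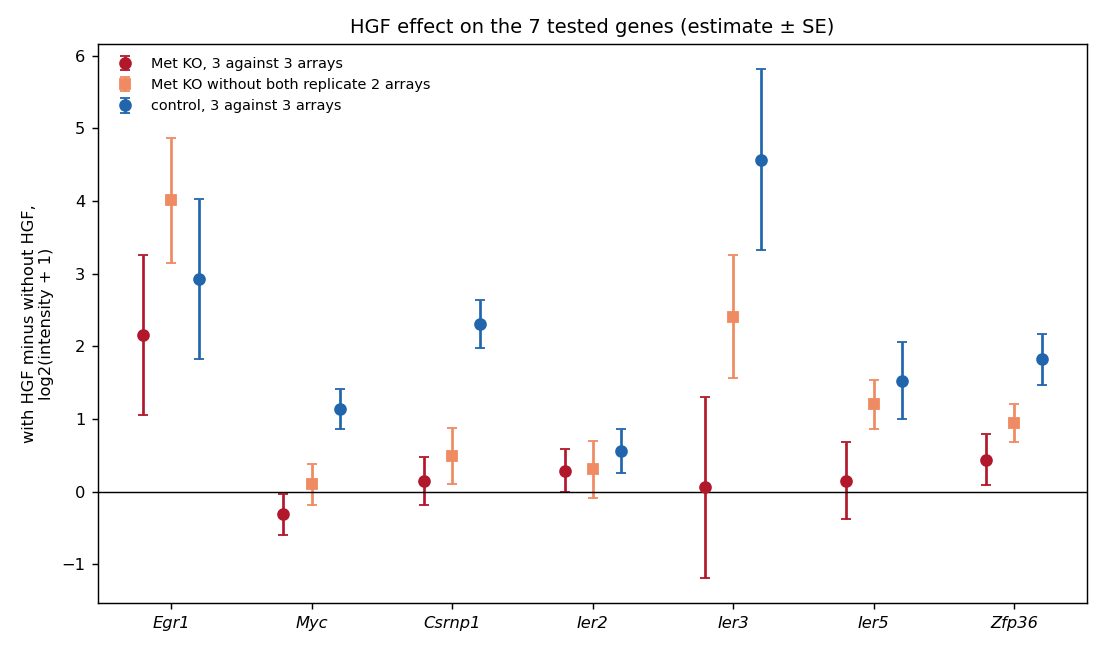
Difference in log2(intensity + 1) between livers with and without HGF for the 7 tested genes, in knockouts with all arrays, in knockouts without both arrays numbered 2, and in controls, with bars of 1 standard error. In controls every difference lies above 0; in knockouts Egr1 is at 2.16 with all arrays and at 4.01 without the pair.

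In knockout livers, HGF gave no call among the 7 tested members, and 0% of all tested probe sets were called (limma; 0 members and 127 probe sets had an unadjusted p under 0.05). The median difference of the 7 was 0.15, beside -0.00 over all tested probe sets. Egr1 differed by 2.16 (SE 1.10), Zfp36 by 0.44 (SE 0.35), Ier2 by 0.29 (SE 0.30), Csrnp1 by 0.15 (SE 0.33), Ier5 by 0.15 (SE 0.53), Ier3 by 0.06 (SE 1.24) and Myc by -0.31 (SE 0.28). The adjusted p rounded to 1 for each. Ier2 was the 1 tested member whose 3 HGF-treated knockouts lay above the 3 without, a separation that 2.56% of tested probe sets showed.

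Without both knockout arrays numbered 2, Egr1 was called in knockouts, with a difference of 4.01 (SE 0.86, adjusted p = 0.0412). It was 1 of 7, where 4.16% of tested probe sets were called, and the remaining arrays read 7.32 and 7.34 with HGF against 2.95 and 3.70 without. Ier3 differed by 2.41 (SE 0.84, adjusted p = 0.144), Ier5 by 1.20 (SE 0.34, adjusted p = 0.091) and Zfp36 by 0.94 (SE 0.26, adjusted p = 0.082). For Ier3 the pair of HGF-treated knockouts were far apart, at 4.04 and 7.11. Csrnp1 differed by 0.49 (adjusted p = 0.491), Ier2 by 0.31 (adjusted p = 0.683) and Myc by 0.10 (adjusted p = 0.868). The median of the 7 was then 0.94, beside -0.04 over all tested probe sets. As the pair was picked for values that run against their labels, leaving it out raises these differences by construction, and 2 arrays a group remain.

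To set the 6 knockout arrays on one scale, each value was placed between the control means, where 0 is the mean of controls without HGF and 1 the mean of controls with HGF. Knockout array 3 with HGF stood at 0.95 for Ier5, 0.91 for Ier3, 0.86 for Zfp36, 0.85 for Csrnp1, 0.71 for Egr1, 0.39 for Myc and 0.38 for Ier2. It thus came near the HGF-treated controls for 4 members. Knockout array 1 with HGF stood at 0.84 for Ier2, 0.70 for Egr1, 0.67 for Csrnp1 and 0.63 for Zfp36, but at 0.37 for Myc, 0.25 for Ier5 and 0.23 for Ier3. Array 2 with HGF stood at 0.67 for Zfp36, 0.56 for Ier2 and 0.55 for Csrnp1, with Egr1 at 0.18, Myc at 0.03, Ier3 at -0.02 and Ier5 at -0.26. Csrnp1 and Zfp36 were therefore above the middle of the scale on all 3 HGF-treated knockout arrays, while Ier3 and Ier5 were near 1 on a single one.

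Among knockouts without HGF, array 2 stood at 1.01 for Ier5, 1.01 for Myc, 1.00 for Ier3, 0.99 for Zfp36, 0.77 for Csrnp1, 0.70 for Egr1 and 0.12 for Ier2. Arrays 1 and 3 stood at 0.04 and 0.04 for Ier3 and at -0.79 and -0.53 for Egr1. For Csrnp1 they stood at 0.49 and 0.60, so this gene lay between the control means on every knockout array without HGF.

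**Figure D3:**
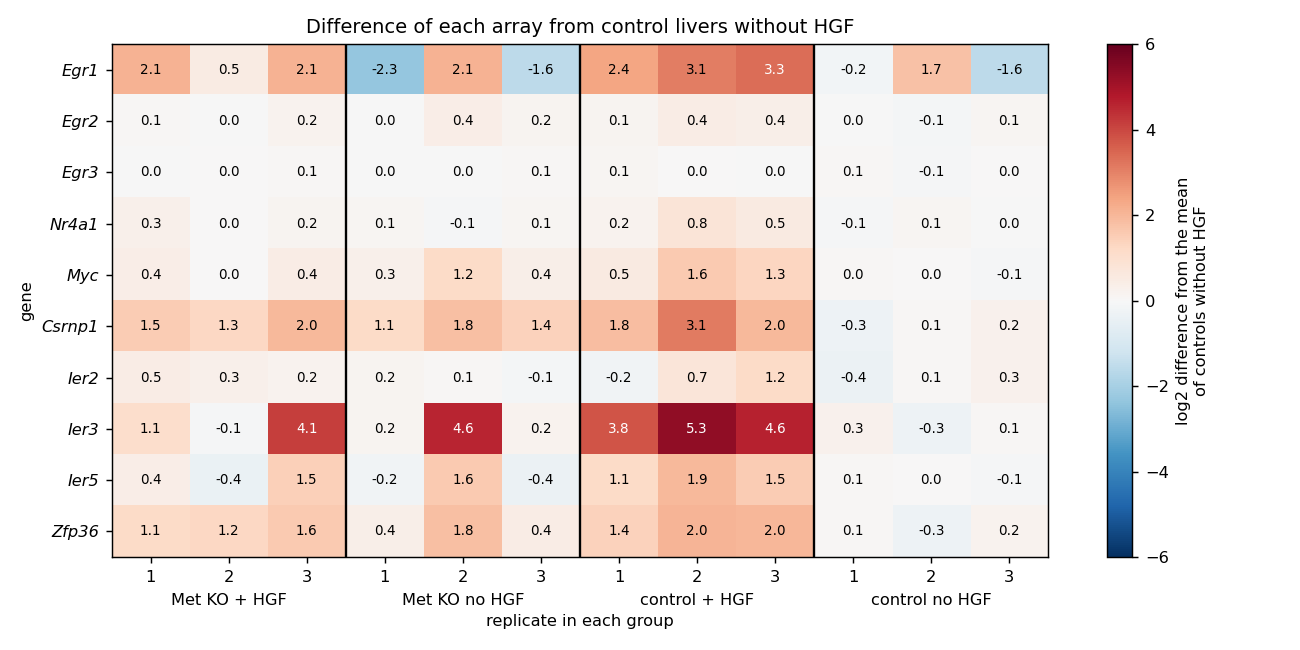
Difference of each array from the mean of controls without HGF, in log2(intensity + 1), for the 10 genes (rows) and 12 arrays (columns, by group and replicate number). On knockout array 2 without HGF, Ier3, Ier5, Myc and Zfp36 are within the range of the HGF-treated controls, and Csrnp1 is above 0 on all 6 knockout arrays.

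Knockout and control livers without HGF were compared next. None of the 7 tested members was called, where 0.0599% of tested probe sets were, and 2 members, Csrnp1 and Zfp36, had an unadjusted p under 0.05. Csrnp1 was higher in knockouts by 1.44 (SE 0.33, adjusted p = 0.142) and by 1.26 without both knockout arrays numbered 2 (adjusted p = 0.11). Knockouts averaged 5.10 ± 0.33 and controls 3.66 ± 0.27 (SD, n = 3 each), with no overlap. Myc and Zfp36 also had all 3 knockouts above all 3 controls, so that 3 of 7 members separated this way, beside 6.61% of tested probe sets. Zfp36 differed by 0.87 (adjusted p = 0.397) and Myc by 0.61 (adjusted p = 0.483), and these values were 0.40 and 0.33 without the pair of arrays. Ier5 differed by 0.33 and Ier2 by 0.04, with -0.28 and 0.03 without the pair. The difference for Ier3, 1.65 (adjusted p = 0.693), was 0.19 without the pair, and that for Egr1, -0.60 (adjusted p = 0.901), was -1.93. The median of the 7 was 0.61 beside -0.03 over all tested probe sets, and 0.19 beside 0.00 without the pair, where 2.69% of probe sets and no member were called.

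After HGF, all 7 tested members averaged lower in knockout than in control livers, with none called, where 0.0150% of tested probe sets were. The median difference was -0.84, beside 0.04 over all tested probe sets. Ier3 differed by -2.86 (adjusted p = 0.513), Egr1 by -1.38 (adjusted p = 0.679), Ier5 by -1.05 (adjusted p = 0.56), Myc by -0.84 (adjusted p = 0.484), Csrnp1 by -0.72 (adjusted p = 0.532), Zfp36 by -0.51 (adjusted p = 0.643) and Ier2 by -0.22 (adjusted p = 0.801). Egr1 and Myc were the 2 members with all 3 knockouts below all 3 controls, which 6.08% of tested probe sets showed. Without both knockout arrays numbered 2, Ier3 differed by -1.96, Egr1 by -0.86, Myc by -0.71, Ier5 by -0.62, Csrnp1 by -0.55, Zfp36 by -0.47 and Ier2 by -0.22. The median was then -0.62, no member was called and 0.0299% of probe sets were.

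Whether the HGF difference itself differed between genotypes was tested by the interaction, the difference in knockouts minus that in controls. No member was called and 0% of tested probe sets were (limma; 4 members and 724 probe sets had an unadjusted p under 0.05). The values were negative for all 7, at -4.51 for Ier3 (SE 1.76, adjusted p = 0.415), -2.16 for Csrnp1 (SE 0.47, adjusted p = 0.244), -1.45 for Myc (SE 0.40, adjusted p = 0.318), -1.38 for Zfp36 (SE 0.49, adjusted p = 0.4), -1.38 for Ier5 (SE 0.76, adjusted p = 0.548), -0.78 for Egr1 (SE 1.56, adjusted p = 0.897) and -0.27 for Ier2 (SE 0.42, adjusted p = 0.858). Without both knockout arrays numbered 2, Csrnp1 was at -1.82, Ier3 at -2.16, Myc at -1.05, Zfp36 at -0.87, Ier5 at -0.33 and Ier2 at -0.25, and Egr1 turned to 1.07. No member was called there, where 0.359% of probe sets were. These comparisons share arrays, the HGF-treated and the other controls among them. A weaker response of any member in knockout livers was thus not established at 3 arrays a group.

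Across the 12 arrays, the members formed a close set with looser edges. Pearson's r with the mean profile of the 7, each scaled to mean 0 and SD 1, was 0.943 for Ier3, 0.939 for Zfp36, 0.928 for Ier5, 0.925 for Myc, 0.88 for Csrnp1, 0.816 for Egr1 and 0.659 for Ier2. The closest pair was Ier3 and Ier5 (r = 0.983), and Csrnp1 was closest to Zfp36 (r = 0.893). Ier2 reached at most 0.582 with another member, Myc. Without both knockout arrays numbered 2, r with the mean profile ranged from 0.732 for Ier2 to 0.966 for Zfp36 over 10 arrays, and Ier3 and Ier5 were at 0.981. The correlations run over 12 arrays that hold the group differences, and each gene is part of the mean profile, so they describe the arrays and carry no p. The 6 non-member genes most like the mean profile were Cd83 (r = 0.982), Rnd3 (r = 0.981), Ip6k2 (r = 0.978), Cdc42ep2 (r = 0.967), Pvr (r = 0.961) and Il1b (r = 0.958). Of single members, Ier3 and Ier5 were most like Arid5a (r = 0.996 and 0.989), Zfp36 most like Junb (r = 0.964) and Myc most like Klf6 (r = 0.966). Egr1 was most like Arhgef3 (r = 0.936), Csrnp1 most like Chic2 (r = 0.934) and Ier2 most like Oga (r = 0.821).

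The neutrophil markers S100a8 and S100a9 moved with the high arrays. S100a8 and S100a9 were the 2 of 7 neutrophil markers on the array that passed the filter, and Elane, Mpo and Ngp, which mark neutrophil precursors, were below 4 on every array. S100a9 read 7.27, 3.06 and 9.49 in knockouts with HGF and 4.29, 9.51 and 3.74 in knockouts without. It read 9.51, 10.74 and 8.84 in controls with HGF and 4.70, 4.25 and 3.33 in controls without. The 5 arrays above 8 were those high for Ier3 and Ier5. The summed intensity of the neutrophil list ranged from 36.5 to 1250 in knockouts with HGF, 52.3 to 1270 in knockouts without, 782 to 2840 in controls with HGF and 46.3 to 102 in controls without. Kupffer cell markers summed to 1770 to 2860 in knockouts with HGF, 1670 to 2810 in knockouts without, 1750 to 2510 in controls with HGF and 2410 to 3570 in controls without. Sinusoidal endothelial markers summed to 1520 to 1930 in knockouts with HGF, 1450 to 1980 in knockouts without, 1310 to 1340 in controls with HGF and 1700 to 1750 in controls without. With all arrays neither marker was called. In knockouts with HGF against those without, S100a8 differed by 0.65 and S100a9 by 0.76 (adjusted p = 1 each), and in controls they differed by 4.62 (adjusted p = 0.159) and 5.60 (adjusted p = 0.127). Without both knockout arrays numbered 2, both were called in both genotypes, with a median of 4.17 in knockouts and 5.11 in controls. In that fit 1 of the 8 Kupffer cell markers was called, Marco, higher by 2.25 in controls and by 2.51 in knockouts. Of the 8 endothelial markers, Lyve1 was called higher in controls, by 2.61. Gpr182 and Fcgr2b were called lower in controls, with differences of -0.91 and -0.82, and no endothelial marker was called in knockouts. Of all tested probe sets, 8.16% were then called in controls and 4.16% in knockouts. The part of these cell types in the members' values was not tested.

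Genes of the same pathways were described by lists, with the median difference between controls with and without HGF set beside -0.09 over all tested probe sets. Over all tested probe sets the median in knockouts was -0.00 with all arrays and -0.04 without both arrays numbered 2. Medians and counts cover the tested members of each list and are descriptions, since a gene that is dim without HGF passed the filter only where other arrays were high. Leaving out the pair raises the knockout differences by construction for genes that follow the pattern of those arrays, and it called 4.16% of all tested probe sets in knockouts and 8.16% in controls. Of the members' paralogs, 1 of 10 on the array was tested, Zfp36l1, a relative of tristetraprolin, with a difference of 0.94 in controls (adjusted p = 0.282), called without the pair (adjusted p = 0.0489). The AP-1 subunits and Atf3, other immediate early transcription factors, had 8 of 13 tested, a median of 2.05 in controls, and rises of Junb by 4.46 (adjusted p = 0.0338) and Atf3 by 2.79 (adjusted p = 0.0418). Their median in knockouts was 0.20, with none called, and 0.97 without the pair. In that fit 6 of the 8 were called higher in controls, beside 8.16% of all tested probe sets, and 2 in knockouts, beside 4.16%: Junb by 2.55 and Fosl2 by 1.12. Of the 8, 3 were below 4 on all controls without HGF. Of other early response genes, 25 of 33 were tested, with a median of 2.26 in controls. Plk3, a stress kinase, rose by 3.88 and Trib1, a pseudokinase, by 1.36. In knockouts their median was 0.04, with none called, and 0.95 without the pair, with 21 of 25 positive. In that fit 18 were called higher in controls, beside 8.16% of all tested probe sets, and 5 in knockouts, beside 4.16%. Of the 25, 5 were below 4 on all controls without HGF.

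Inputs and brakes of the ERK cascade were described the same way. The list of serum response and ERK input, which holds the kinases and factors upstream of these promoters, had 14 of 21 tested, a median of 0.05 in controls and 0.07 in knockouts, and no call with all arrays. Without the pair its knockout median was 0.19. In that fit 3 of the 14 were called higher in controls, beside 8.16% of all tested probe sets called in either direction. These were Map3k8, a kinase upstream of ERK, by 3.26, Mapkapk2, a kinase downstream of p38, by 1.06 and Crem, a CREB relative, by 0.64. In knockouts, where 4.16% of all tested probe sets were then called, Map3k8 was called higher by 2.44 and Crem by 1.52. Sos2, a Ras activator, was called lower there, with a difference of -1.49. In the 2 control groups alone 3 of the 14 were called higher, beside 12% of all tested probe sets called in either direction. Feedback genes had 6 of 14 tested and a median of 1.20 in controls, where Phlda1, a gene that ERK signalling induces, rose by 2.29 (adjusted p = 0.0338). The phosphatase genes Dusp1, at 1.51 (adjusted p = 0.0989), and Dusp6, at -0.88 (adjusted p = 0.488), were not called with all arrays. Dusp1 was called without the pair (adjusted p = 0.0278) and in the 2 control groups alone (adjusted p = 0.0216), and Dusp6 was called lower in the 2 control groups alone (adjusted p = 0.0266). Without the pair, 4 of the 6 feedback genes were called higher in controls, beside 8.16% of all tested probe sets: Phlda1, Dusp1, Dusp16 and Errfi1. In knockouts the list had a median of 0.04, and 0.47 without the pair, with none called in either fit.

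Partners and targets of 4 members were listed too. Of the Egr list, 6 of 11 were tested, all with a positive difference in controls and none called, with a median of 0.74. In knockouts the median was 0.17, and 0.44 without the pair, again with none called. Nab1 and Nab2, corepressors that bind Egr proteins, differed in controls by 0.57 (adjusted p = 0.106) and 0.80 (adjusted p = 0.459). Of the Myc list, 12 of 20 were tested. Of these, 6 were positive in controls, none was called and the median was 0.04. In knockouts the median was 0.12, and 0.39 without the pair. The largest difference of this list in controls was in Cdkn1a, a cell cycle inhibitor that Myc is known to repress, at 2.69 (adjusted p = 0.177). Rrs1, a ribosome assembly factor, followed in controls at 1.70 (adjusted p = 0.153), and was called there without the pair (adjusted p = 0.0154). Of the AU-rich messages that tristetraprolin is known to destabilise, 8 of 14 were tested, all were positive in controls, none was called and the median was 3.89. Of these 8, 5 were below 4 on all controls without HGF and passed the filter through other arrays, so their sign and median in controls are partly set by the filter. Their median in knockouts was 0.02 with all arrays and 2.18 without the pair, with 7 of 8 positive. The chemokine genes Cxcl2, at 7.73 (adjusted p = 0.103), and Cxcl1, at 6.05 (adjusted p = 0.0801), had the largest differences in controls. Without both knockout arrays numbered 2, 7 of the 8 were called higher in controls, beside 8.16% of all tested probe sets, and Cxcl1 alone in knockouts, by 4.43, beside 4.16%. Of the metabolic genes linked to Nr4a1 in liver, 5 of 8 were tested, 2 were positive in controls and none was called. G6pc, which encodes glucose-6-phosphatase, differed in controls by -3.65 (adjusted p = 0.0643). Without the pair G6pc was called lower in controls (adjusted p = 0.0134), and Slc2a2, which encodes the glucose transporter GLUT2, lower in knockouts, with a difference of -0.88.

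**Figure D4:**
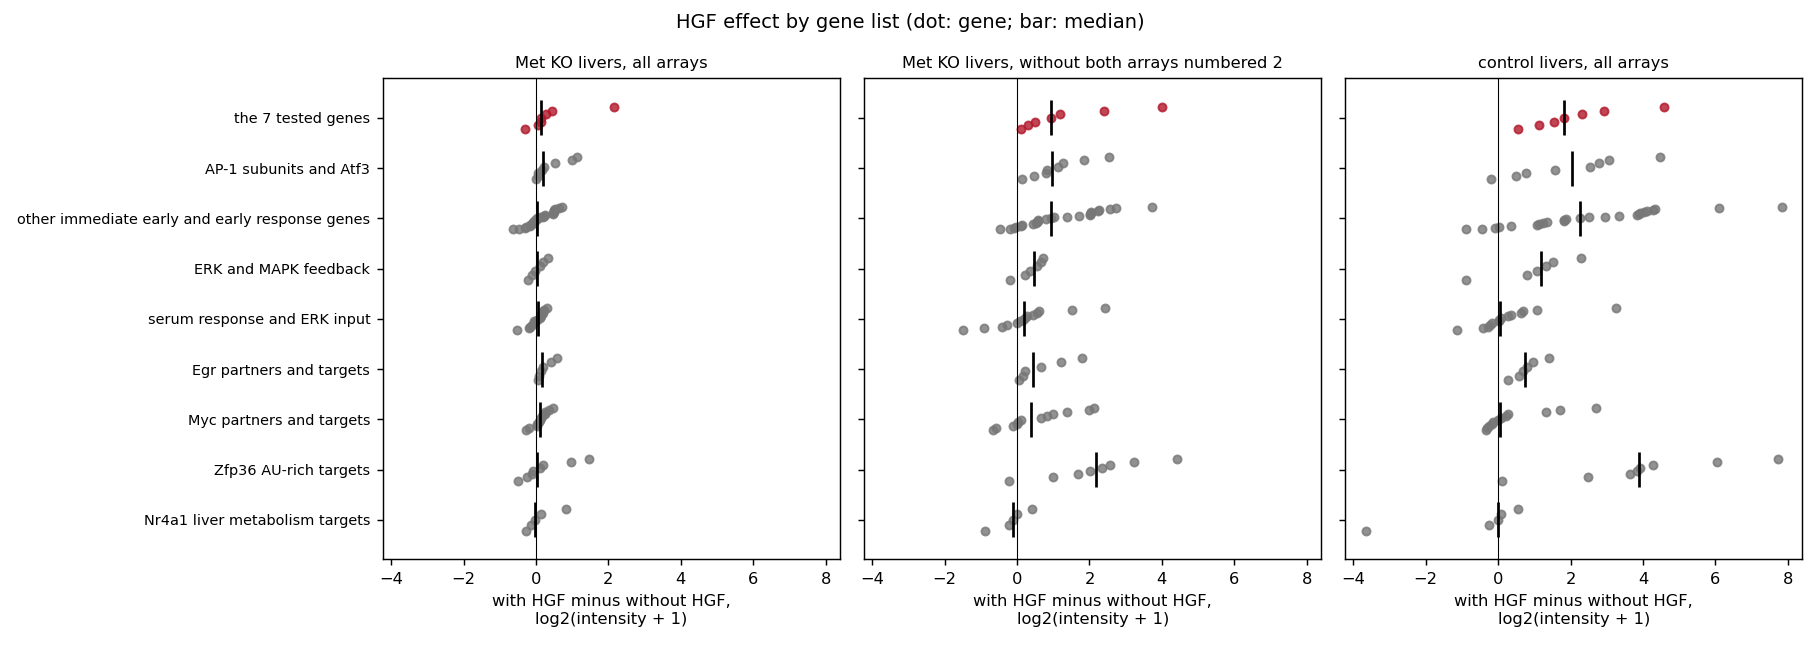
Difference in log2(intensity + 1) between livers with and without HGF for the tested genes of each list, with 1 point per gene and a bar at the list median. The panels show knockouts with all arrays, knockouts without both arrays numbered 2, and controls, where the 7 tested members have medians of 0.15, 0.94 and 1.82 and the AU-rich messages medians of 0.02, 2.18 and 3.89.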

How the data were processed

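RNA of cryopreserved mouse liver was labelled with biotin by the Affymetrix one-cycle procedure and hybridised with 1 array for each animal, per the labels' protocols. The deposited values are linear probe set intensities made by the authors with GCRMA (version not given in the sources used), per the submitters' processing notes. GCRMA corrects for background by the base content of each probe and brings arrays to a common scale, so shifts common to nearly all genes are lost and dim values are compressed. Groups came from the sample titles. The table held 16539 probe sets, 64 of them array controls, and 15780 had 1 gene symbol in the platform annotation, with 1 probe set per gene.

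Values were transformed to log2(intensity + 1), and probe sets with a value of at least 4 on at least 3 arrays were kept, which left 6683. Differences on this scale understate changes of dim genes. A mean for each of the 4 groups was fitted in R 4.3.3 by limma 3.58.1, with empirical Bayes moderation, 8 residual degrees of freedom and two-sided tests, adjusted by Benjamini and Hochberg over all tested probe sets. The number of arrays, 3 animals a group, limits the precision. The fit was tested on simulated data. The alternatives were no filter, a pseudocount of 16, quantile normalization, the 2 groups of a contrast alone, array weights, a trended and robust prior, the replicate number as a block, each array left out, and both knockout arrays numbered 2 left out. Correlations without that pair were added after the data were seen. The members and lists were chosen with earlier results of these data known, and the named genes are all members, the called members of each list, those with the largest difference in controls, and the genes most like the members by Pearson's r. The list members Zfp36l1, Nab1, Nab2, Dusp1 and Dusp6 were named after their values were seen. Motifs were searched in the RefSeq promoter table of GRCm38.p6, leaving out member windows on the chromosome that carries Egr1. Protein sequences were not used here.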

Additional observations from a re-analysis of the deposited data

How the results depend on the processing

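In controls, the HGF difference stayed positive for all 7 members under every alternative run, while calls moved. The members called, 1 of 7 with all arrays, numbered 5 in the 2 groups alone, 7 with array weights (which did not reach their convergence tolerance), 6 without both knockout arrays numbered 2, and 0 to 4 when 1 array was left out. Over all probe sets the calls were 27, against 13 with no filter, 41 with a pseudocount of 16, 801 in the 2 groups alone, 1353 with array weights, 545 without the pair, and 0 to 317 with 1 array left out. With the replicate block, over all groups or within genotype, 0 members and 0 probe sets were called, with adjusted p for Csrnp1 of 0.0544 and 0.226. The titles give each group numbers 1 to 3, and same-numbered arrays of a genotype were neighbours in array order. Deviations of same-numbered arrays correlated at 0.12, -0.829 and -0.698 in knockouts and 0.104, 0.177 and 0.0504 in controls. With 3 arrays a group these values cannot settle whether the numbers pair the arrays, and the main fit did not use the numbers.

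In knockouts, the HGF difference gave 1 member and 278 probe sets without the pair. The knockout effect without HGF gave 1 member (Csrnp1, adjusted p = 0.0245) and 637 probe sets with array weights; its probe set count, 4 with all arrays, was 180 without the pair, 1 with a trended prior, 1 with the replicate block and 1 to 9 with 1 array left out. With HGF, array weights called 3 members (Ier3, Ier5 and Myc) and 290 probe sets, and 2 probe sets were called without the pair and 1 to 3 with 1 array left out. The interaction gave 3 members (Ier3, Myc and Csrnp1) and 268 probe sets with array weights, 24 probe sets without the pair and 0 to 1 with 1 array left out.

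Signs turned in knockouts for the HGF difference of Ier3 (-0.03 with a pseudocount of 16, -1.15 to 1.52 with 1 array left out), Myc (0.00 with array weights, 0.10 without the pair), Ier5 (-0.34 to 0.76) and Csrnp1 (-0.04 to 0.33). Without HGF, the knockout effect turned for Ier5 (-0.10 with array weights, -0.28 without the pair, -0.28 to 0.67 with 1 array left out), Egr1 (-1.93 to 0.27) and Ier2 (-0.14 to 0.18), and with HGF for Ier2 (-0.61 to 0.08). The interaction turned for Egr1 (0.59 with array weights, 1.07 without the pair, -1.65 to 0.55) and Ier2 (-0.65 to 0.04). Ranges without a named setting leave out 1 array each, and the cause of these changes was not tested. Signal over background limits Egr2, Egr3 and Nr4a1.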
